A study of Mus musculus with 10 samples.

Results

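Genes of iron and heme handling were described across 5 mouse tissues. They were chosen by name: Hamp, Tf, Tfrc, Fth1, Ftl1, Hp, Hpx and Cp. 7 of these had a probe set, the group of short probes that reads 1 message, with that gene as its only symbol, out of 6137 genes named in this way. They were read by 8 of the 13057 probe sets that are not controls, and Tfrc also by 3 control probe sets of the array. Tf, which encodes transferrin, was not analysed here, since no probe set used carries its name. 2 further probe sets list Ftl1 beside other genes and were not used.

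Total RNA came from adult female C57BL/6 mice and was read on Affymetrix one-colour arrays, in which the brightness of a probe set, its intensity, follows the amount of message. The groups were liver, pancreas, muscle, white adipose tissue and hypothalamus. No genotype or treatment is named in the labels, and how many animals gave each sample is not given in the sources used here. A single array of chip A and a single array of chip B, which carry different probe sets, were made per tissue, so there were 10 arrays and no replicates. Differences below thus carry no test and no spread over animals. In the titles the adipose arrays are named "preconfluent", and the group was taken from the source label.

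Mammals have no regulated route for excreting iron, so its level is set at entry and release. Hepcidin, the hormone encoded by Hamp, closes the iron exporter ferroportin. Transferrin carries iron in blood to the transferrin receptor, Tfrc, and ferritin, a shell of heavy (Fth1) and light (Ftl1) subunits, stores it. Haptoglobin (Hp) and hemopexin (Hpx) bind free hemoglobin and free heme in plasma for clearance by the liver and by macrophages. Ceruloplasmin (Cp) is a copper enzyme that oxidises iron for loading onto transferrin. Iron regulatory proteins hold back translation of the ferritin messages and steady the Tfrc message when iron is scarce.

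Each array was scaled to a common trimmed mean, and for ratios low values were raised to a floor, 175 for chip A and 123 for chip B. A noise bound was set at the absolute value of the 1st percentile of each array, because many values are below 0. It was 258 to 1166 on chip A and 649.5 to 2608 on chip B, highest in pancreas and next in muscle, so weak messages could not be read there. The 61 control probe sets present on both chips gave a repeat reading: over 66 pairs above the bound on both, the log2 difference between chips had an SD of 0.28 within a tissue, or 1.21-fold. This SD covers the repeat of the array and not the spread between animals. The mean difference of each tissue, 0.38 in white adipose to 0.74 in pancreas, was taken out first. The SD thus leaves out such shifts between tissues and understates the error of a ratio between them. By tissue it ran from 0.19 in liver to 0.38 in pancreas. Acinar markers (6 of 6), skeletal muscle markers (8 of 8) and white adipocyte markers (7 of 7) were above the bound in their own tissue. So were 14 of 15 hepatocyte markers in liver. In hypothalamus 6 of 8 oligodendrocyte, 3 of 5 astrocyte and 0 of 3 choroid plexus markers were. Slc1a2, an astrocyte marker, was highest in liver, and Cnp, an oligodendrocyte marker, in pancreas, below noise. Of all 6137 genes, 989 were above the bound in pancreas, 1144 in muscle, 2188 in liver, 2576 in hypothalamus and 2104 in white adipose. Among 765 probe sets above the bound in all 5 tissues, pancreas had a median log2 difference of 0.54 from the mean of the remaining tissues, muscle 0.35, liver -0.44, hypothalamus -0.30 and white adipose -0.14. To be among them a probe set had to pass the higher bounds of pancreas and muscle. These medians thus hold that selection beside any shift of arrays. Over all 6137 genes, with floored values, they were 0.00 in pancreas and muscle, -0.18 in liver, -0.04 in hypothalamus and -0.03 in white adipose. Scaling by spiked-in control transcripts moved the pancreas median to -1.74, so small differences that involve pancreas have no settled sign. The 3′ to 5′ intensity ratio of beta-actin, a sign of RNA integrity, was 4.74 and 2.69 in pancreas on the 2 chips and 1.34 to 2.84 elsewhere. That of Gapdh was 1.56 and 1.09 in pancreas and 0.84 to 1.35 elsewhere, and on chip B liver (1.35) and muscle (1.19) exceeded pancreas.

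Hamp, Hpx, Hp and Cp, the hormone and plasma proteins of this set, read highest in liver, and Hp and Cp were above noise in white adipose tissue too. A probe set was called for a tissue where its floored intensity reached 4 times the next highest tissue or more. In these whole tissues, fewer cells of a type and less RNA per cell cannot be told apart. By this rule 3 of the 8 probe sets (Hamp, Hpx and Cp) were called for liver, where 2.12% of all probe sets were. 1 of 8, that of Tfrc, was called for pancreas (3.58% of all), but below the noise bound. None was called for muscle (1.85% of all), hypothalamus (1.98%) or white adipose (0.911%). Hp was shared by liver and white adipose, a pattern of 0.505% of all probe sets. In 6 of 8 the highest floored intensity was at least 4 times the lowest (37.7% of all), and the 3 ferritin probe sets were above the noise bound in all 5 tissues, as were 5.86% of all.

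**Figure D1:**
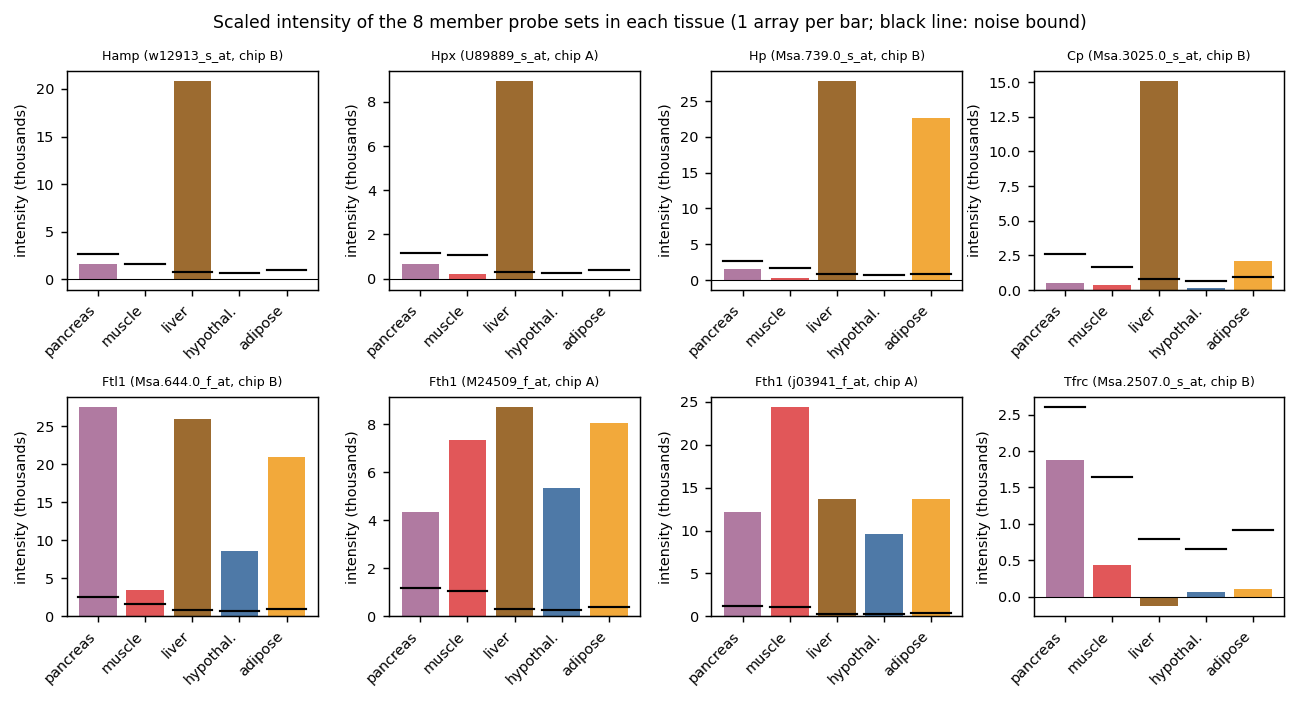
Scaled intensity (in units of 1000) of the 8 member probe sets in the 5 tissues, 1 array per bar, with a black line at the array's noise bound. Hamp and Hpx stand above the bound in liver alone, Hp and Cp in liver and white adipose, the ferritin probe sets in all 5 tissues, and Tfrc in none.

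The start regions of the liver genes are shown because these messages were high in 1 tissue together, with those of the ferritin genes, read in every tissue, for contrast. They come from RefSeq (GRCm38.p6), and run from 250 bases before to 50 after the annotated start of the message, 5′ to 3′ along the gene. Of the 8 names, 6 matched an entry in the table of start regions. Capitals mark matches, on either strand, to GGCGCC (the core of a BMP response element), TTCNNNGAA (a STAT site), TTGCNNAA (a C/EBP-like site), CCAAT and TATAA. Hamp lies at chr7:30943980-30944279 (minus strand), Hpx at chr7:105600067-105600366 (minus strand) and Cp at chr3:19956999-19957298 (plus strand). Ftl1 lies at chr7:45459837-45460136 (minus strand) and Fth1 at chr19:9982396-9982695 (plus strand). Cp and Fth1 each have 2 annotated starts, and the downstream window is printed.
Hamp: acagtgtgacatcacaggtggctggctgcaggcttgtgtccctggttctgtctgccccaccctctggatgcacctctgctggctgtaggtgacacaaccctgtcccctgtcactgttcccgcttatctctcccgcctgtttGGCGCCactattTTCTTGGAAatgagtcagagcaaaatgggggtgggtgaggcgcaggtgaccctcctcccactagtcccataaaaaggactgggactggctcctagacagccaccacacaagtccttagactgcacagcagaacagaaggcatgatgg
Hpx: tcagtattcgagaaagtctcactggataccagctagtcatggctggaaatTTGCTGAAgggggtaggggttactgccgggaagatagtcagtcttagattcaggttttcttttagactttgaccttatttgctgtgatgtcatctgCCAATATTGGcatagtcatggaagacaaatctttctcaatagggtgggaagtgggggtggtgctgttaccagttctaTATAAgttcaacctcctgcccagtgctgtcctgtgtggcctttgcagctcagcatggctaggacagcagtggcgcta
Cp: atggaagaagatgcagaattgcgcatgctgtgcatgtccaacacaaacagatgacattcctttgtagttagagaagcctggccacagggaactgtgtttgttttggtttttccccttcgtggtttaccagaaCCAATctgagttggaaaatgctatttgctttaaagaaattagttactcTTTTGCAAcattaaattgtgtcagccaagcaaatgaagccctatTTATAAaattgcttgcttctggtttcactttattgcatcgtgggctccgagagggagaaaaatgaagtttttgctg
Ftl1: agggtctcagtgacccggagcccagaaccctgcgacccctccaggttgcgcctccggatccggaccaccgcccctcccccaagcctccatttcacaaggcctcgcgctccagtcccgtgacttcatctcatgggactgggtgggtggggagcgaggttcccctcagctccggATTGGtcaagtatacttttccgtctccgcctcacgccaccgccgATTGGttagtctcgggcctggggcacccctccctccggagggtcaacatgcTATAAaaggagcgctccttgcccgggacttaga
Fth1: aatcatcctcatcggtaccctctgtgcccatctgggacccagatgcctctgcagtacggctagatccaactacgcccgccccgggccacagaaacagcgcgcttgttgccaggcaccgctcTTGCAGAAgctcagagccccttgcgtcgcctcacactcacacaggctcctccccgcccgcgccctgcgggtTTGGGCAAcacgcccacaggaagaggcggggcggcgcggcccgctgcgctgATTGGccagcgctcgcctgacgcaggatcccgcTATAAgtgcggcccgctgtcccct
In the Hamp window GGCGCC began 109 bases before the start and TTCTTGGAA 97 bases before it. Of all 32851 windows of the same length, 11.9% held GGCGCC and 8.30% TTCNNNGAA. None of the other 4 printed windows held either. Of the 2 windows of Tfrc, not printed here, 1 held GGCGCC, 89 bases before its start. TTGCNNAA, in 10.8% of all windows, was in those of Hpx, Cp and Fth1. CCAAT (37.4%) and TATAA (24.9%) were in the windows of Hpx, Cp, Ftl1 and Fth1, and in Hpx 2 CCAAT matches on opposite strands lie side by side. The printed windows held 63.7% G and C for Ftl1 and 67.0% for Fth1, with 20 and 27 CpG pairs, and 56.3%, 47.3% and 40.0% for Hamp, Hpx and Cp, with 4, 3 and 4. The windows at the other starts held 36.7% with 4 CpG pairs for Fth1 and 38.3% with 2 for Cp, so the order of Fth1 against the liver genes depends on the start taken. The median over all windows was 52.7% G and C. A match is a stretch of letters and not a shown binding site.

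Hamp, which encodes hepcidin, read 20882 in liver, 1610 in pancreas, -77.3 in muscle, -91.3 in hypothalamus and -110.5 in white adipose. Whether its probe set also reads Hamp2, a gene with a like start region, was not tested. Liver was the only tissue above its noise bound, and the liver value was at least 8.01-fold above the other tissues, the limit being set by the pancreas bound of 2608. Against the bounds of muscle, white adipose and hypothalamus it was at least 12.7-fold, 22.7-fold and 32.1-fold higher. The probe sets of chip B most like Hamp over the 5 tissues were those of Ang, F2 and Ugt2b5, out of 751 compared. Their centred log2 profiles differed from that of Hamp by a root mean square of 0.60, 0.63 and 0.68. F2 encodes prothrombin and Ugt2b5 an enzyme of glucuronidation.

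Hpx, which encodes the heme carrier hemopexin, read 8963 in liver, 653 in pancreas, 194 in muscle, -29.8 in hypothalamus and -70.3 in white adipose on chip A. It was above noise in liver alone, with a value at least 7.68-fold higher than elsewhere. Against the lower bounds of white adipose and hypothalamus the liver value was at least 23.0-fold and 34.7-fold higher. The profiles closest to it among 2734 were those of Sdc4, a cell surface proteoglycan (0.30), Rgn, a calcium-binding lactonase (0.31), and Mat1a, the liver enzyme of S-adenosylmethionine synthesis (0.35).

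Hp, which encodes the hemoglobin scavenger haptoglobin, read 27853 in liver, 22593 in white adipose, 1597 in pancreas, 237 in muscle and -8.93 in hypothalamus. Liver and white adipose stood apart from the other 3 tissues, which were all below their bounds. Liver was 1.23-fold above white adipose, a log2 difference of 0.30 beside the repeat SD of 0.28. This order is not settled: the log2 difference was -0.11 when arrays were scaled by spikes and 0.00 with quantile normalization. White adipose was at least 8.66-fold above pancreas, 13.8-fold above muscle and 34.8-fold above hypothalamus. In white adipose 14 of 15 hepatocyte markers were not above the noise bound. The exception was Cyp2e1, a cytochrome P450, at 17182 there and 16351 in liver. Of 15 macrophage markers, 10 were above the bound in white adipose, 7 in liver, 6 in hypothalamus, 2 in muscle and 1 in pancreas. Of all 6137 genes, 2104 were above it in white adipose, 2188 in liver, 2576 in hypothalamus, 1144 in muscle and 989 in pancreas. Of these markers, 8 were highest in white adipose and above noise, 1 in liver and 1 in muscle (477, 535 and 526 of all 6137 genes were). For white adipose 3 were called (1.25% of all genes), and for liver 1 (2.79%). Csf1r and Mrc1, receptors of macrophages, were called for white adipose (1758 and 1745), and Clec4f, a lectin of liver macrophages, for liver (1337). The Csf1r and Mrc1 values lie under the pancreas bound of 2608, so their order against pancreas is not settled. The summed intensity of the macrophage list on chip B was 23992 in white adipose and 4849 to 7000 in the other tissues. On chip A the contrast was smaller, with 12437.5 in white adipose, 8532 in pancreas, 5641 in liver, 3975 in muscle and 3193 in hypothalamus. The part of macrophages in the Hp value was not tested. The profiles closest to Hp were those of Fn1, fibronectin (0.87), Gsta3, a glutathione transferase (0.91), and Cd74, the invariant chain of antigen presentation (1.21), all larger differences than for the other members. Gsta3 read 30946 in liver and 9701 in white adipose.

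Cp, which encodes ceruloplasmin, read 15072 in liver, 2135 in white adipose, 543 in pancreas, 403 in muscle and 177 in hypothalamus. Liver was 7.06-fold above white adipose, the next tissue, a log2 difference of 2.82 that exceeds the repeat SD, and at least 5.78-fold above all others when the pancreas bound is counted. White adipose was above its own bound of 918 and at least 3.29-fold above hypothalamus and 1.30-fold above muscle, but it lay under the pancreas bound. The 3 closest profiles were those of Selenbp1 (0.57), Apoc1, an apolipoprotein (0.75), and Aldh2, the mitochondrial aldehyde dehydrogenase (0.80).

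**Figure D2:**
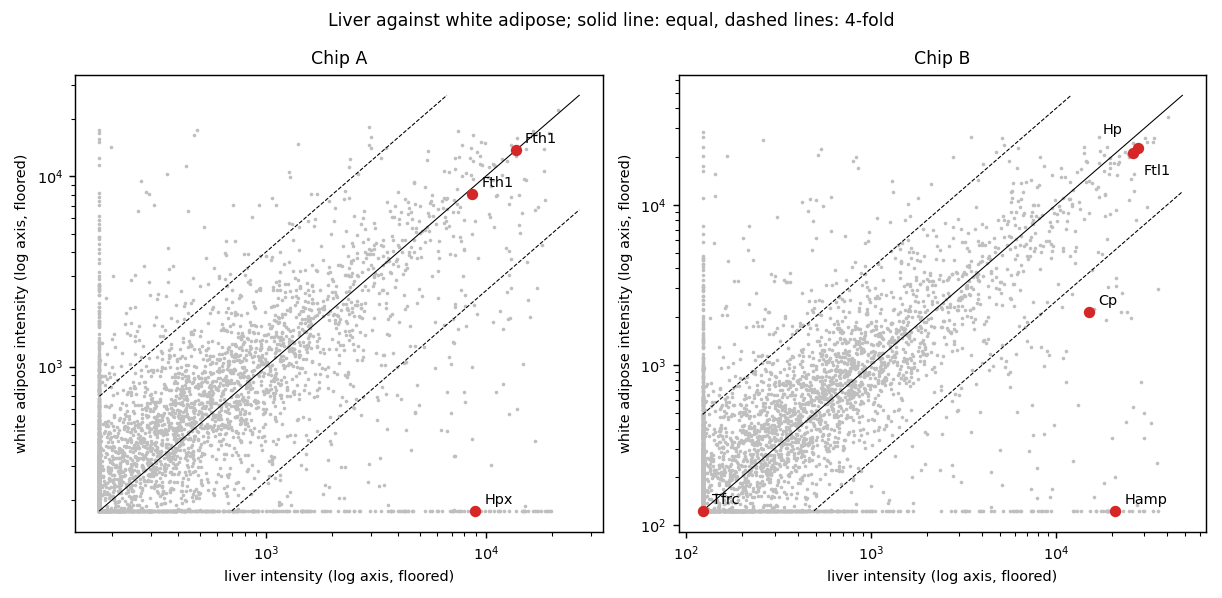
Floored intensity in white adipose tissue against liver for the probe sets of each chip (grey; log axes), with member probe sets in red, a solid line of equal values and dashed lines at 4-fold. Hp (27853 and 22593) and Ftl1 (25983 and 21033) lie near the line of equal values with both Fth1 probe sets, while Cp is 7.06-fold higher in liver and Hamp and Hpx lie at the adipose floor.

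Other plasma proteins of the acute phase, the group raised in blood during inflammation, were also mostly high in liver. Of 20 genes in this list 15 were measured, 9 were highest in liver and above noise (535 of all 6137 genes were), and 5 were called for liver (2.79% of all genes). The list's median log2 difference between liver and the mean of the remaining tissues was 2.63, and that of all 6137 genes was -0.18. Crp, a pentraxin, read 16434 in liver and at most 245 elsewhere, and Fgg, the gamma chain of fibrinogen, read 15080 in liver and 985 in pancreas. Serpina1a, a protease inhibitor, was 7.26-fold above pancreas, at 28662 in liver. The list was at -0.29 in white adipose, where 2 members had their highest value, above noise: Serpina3n, another protease inhibitor, at 4001 against 2837 in liver, and Lbp, which binds bacterial lipopolysaccharide, at 1432 against 1074 (1633 and 1626 by its other probe set). Orm1, an acid glycoprotein, read 7680 in liver and 2525 in white adipose by 1 probe set, and was called for pancreas (1645) by the other. Serpina3n, Lbp and Orm1 were named after their values were seen.

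The pancreas values of Hamp, Hpx, Hp and Cp were all positive and below noise. Of all 6137 genes, 989 were above the bound in pancreas and 1144 in muscle. Of 15 hepatocyte markers, 4 were above it in pancreas and 4 in muscle. In pancreas these were Alb, albumin, at 26266 (18122 in liver), Ahsg, fetuin, at 2911 (17119), Serpina1a at 3951 (28662) and Ttr, transthyretin, at 1995 (4144). The other 11, among them Apoh, Hpd and Pon1, were not above its bound. In muscle they were Alb at 8226, Apoa2, an apolipoprotein, at 4023, Serpina1a at 2787 and Cyp2e1 at 1110. The summed intensity of the list on chip B was 33073 in pancreas, 16049 in muscle, 145574 in liver, 1150 in hypothalamus and 1681 in white adipose. On chip A, which holds Cyp2e1, it was 5040 in pancreas, 2708 in muscle, 97284 in liver, 309 in hypothalamus and 17477 in white adipose, and its part in the member values was not tested.

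The ferritin subunits were read in every tissue, and they differed most in muscle. Both are abundant messages with processed pseudogenes, and all 3 probe sets are of a design for gene families, so these values are uncertain as readings of 1 gene each.

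Ftl1, the light subunit, read 27513 in pancreas, 25983 in liver, 21033 in white adipose, 8642 in hypothalamus and 3522 in muscle. Muscle was lowest, 7.38-fold below liver, 5.97-fold below white adipose and 2.45-fold below hypothalamus. Hypothalamus was 3.01-fold below liver and 2.43-fold below white adipose. Muscle stayed lowest under each of the 5 scalings computed. Pancreas and liver differed by 0.08 on the log2 scale, within the repeat SD, and this sign turned with other scalings, to -0.76 with the 75th percentile, -0.34 with quantile normalization and -1.99 with spikes. Liver and white adipose differed by 0.30, close to that SD, and by -0.03 and -0.10 with quantile normalization and spikes.

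Fth1, the heavy subunit with the site that oxidises iron, was read by 2 probe sets of chip A. The first (j03941) read 24340 in muscle, 13692 in liver, 13668 in white adipose, 12128 in pancreas and 9585 in hypothalamus. The second (M24509) read 8700 in liver, 8049 in white adipose, 7340 in muscle, 5350 in hypothalamus and 4360 in pancreas. The probe sets disagreed on muscle, which was 1.78-fold above liver by the first and 1.19-fold below it by the second. With spikes the second also put muscle above liver, by 0.06 on the log2 scale. Liver was 1.43-fold and 1.63-fold above hypothalamus, but by the first the log2 difference turned to -0.29 with quantile normalization and -0.10 with spikes. Liver and white adipose were 1.002-fold and 1.08-fold apart, within the repeat SD, and the sign turned with quantile normalization (-0.32 and -0.28) and spikes (-0.48 and -0.37). Over the 5 tissues the range was 2.54-fold and 1.995-fold for Fth1 and 7.81-fold for Ftl1.

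In muscle the log2 value of Ftl1 was 2.43 units below the mean of the other 4 tissues (-2.43), while those of Fth1 were 1.003 and 0.21 units above. To allow for the shift of whole arrays, each was set against the probe sets above noise in all 5 tissues. The muscle difference of Ftl1 was then -2.68 relative to the median of 248 such probe sets of chip B, and 0.806% of them had a lower one. Those of the Fth1 probe sets were 0.55 and -0.25 relative to the median of 517 on chip A. These relative values do not change when an array is multiplied by 1 factor. They do depend on the set of probe sets, which leaves out those under the higher bounds of pancreas and muscle. The effect of this selection on the relative values was not tested. With quantile normalization, which does change them, muscle was at -2.72 for Ftl1 and at 0.06 and -0.29 for Fth1. Liver lay above the median for all 3, at 1.55 for Ftl1 and at 0.41 and 0.96 for Fth1, and white adipose at 0.97, 0.08 and 0.49. Hypothalamus lay at -0.52, -0.38 and -0.06, but both Fth1 values turned sign with quantile normalization, to 0.39 and 0.10. Pancreas was at 0.64 for Ftl1 but at -0.73 and -1.21 for Fth1.

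**Figure D3:**
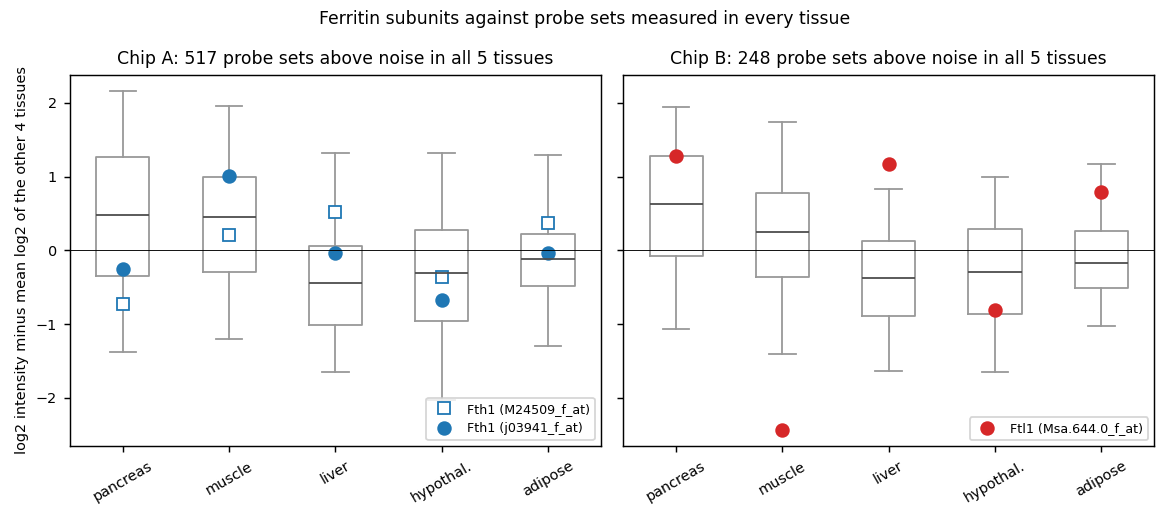
Log2 intensity in each tissue minus the mean log2 of the other 4 tissues for the Fth1 probe sets (blue, chip A) and the Ftl1 probe set (red, chip B); grey boxes show the quartiles, median and 5th to 95th percentiles of probe sets above noise in all 5 tissues (517 and 248). Ftl1 lies at -2.43 in muscle, below the whisker, while the Fth1 probe sets lie at 1.003 and 0.21.

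The profiles closest to Ftl1 were those of Selenop, the selenium carrier of plasma (0.36), Eef1a1, a translation elongation factor (0.36), and Ctsl, a lysosomal protease (0.41). Selenop read 25279 in liver, 14464 in white adipose, 14264 in pancreas, 5016 in hypothalamus and 3250 in muscle. The closest to the first Fth1 probe set were Ap3b1, of vesicle coats (0.12), Prpf8, of the spliceosome (0.14), and Ndufb11, of respiratory complex I (0.16). Closest to the second were Gm2a, an activator of lysosomal lipid breakdown (0.12), Acp6, a phosphatase (0.15), and Lamp1, a lysosomal membrane protein (0.15).

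Tfrc, the receptor that takes up iron-loaded transferrin, was not above noise in any tissue. Its chip B probe set read 1875 in pancreas, 434 in muscle, 102 in white adipose, 58.6 in hypothalamus and -136 in liver, and the pancreas value lay under the bound of 2608. The call for pancreas was lost with 75th percentile scaling, where the log2 difference from the next tissue was 1.83, and with spikes, where it was 0.33. The control probe set of the 3′ end, present on both chips, was highest in muscle, at 893 on chip A and 1082 on chip B. Pancreas followed with 341 and 837, and the other 3 tissues read 135 to 271, all below their bounds. The order of pancreas and muscle thus differed between the probe sets of Tfrc. The control probe sets of the 5′ end and the middle read -665 to 391 on the 2 chips, also below the bounds. Where Tfrc was highest was not detectable at this noise.

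Across the wider pathway, genes of iron, heme and copper handling were called for a tissue in few cases. Of 82 genes listed, 46 were measured, and 20 of these had their highest value below noise. 3 were called for liver (2.79% of all 6137 genes were), and none for pancreas (3.29%), muscle (1.65%), hypothalamus (2.33%) or white adipose (1.25%). Counting those above noise, 14 had their highest value in liver, 8 in white adipose, 3 in hypothalamus, 1 in pancreas and 0 in muscle. Of all 6137 genes, 535 did so in liver, 477 in white adipose, 904 in hypothalamus, 556 in pancreas and 526 in muscle. A value counted as highest can lie under the higher bounds of pancreas and muscle. For such weak genes the highest tissue is not settled.

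Among genes of heme and hemoglobin clearance, 5 of 11 were measured. All 5 were highest in liver and above noise there (535 of all 6137 genes were). Ambp, the precursor of the heme-binding alpha-1-microglobulin, read 29680 in liver, at least 11.4-fold higher than elsewhere. Fabp1, a fatty acid binding protein that also binds heme, was at least 14.8-fold higher, at 17278, but its other probe set read 223 in liver, below noise. Slc46a1, a folate and heme carrier, read 861 in liver and 445 in white adipose. Abcg2, of the same list, read 595 in liver and 526 in muscle. Both liver values lie under the chip A bounds of muscle (1065) and pancreas (1166), so their highest tissue is not settled. Lrp1, the receptor for heme bound to hemopexin, read 3787 in liver, 3723 in muscle, 2571 in white adipose and 1894 in hypothalamus, all above noise, and 1312 in pancreas, below it. Liver and muscle did not differ in Lrp1 beyond the repeat SD. The list's median in liver was 1.47, and that of all 6137 genes was -0.18.

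Of 9 genes of heme synthesis 8 were measured, 4 were highest in liver and above noise (535 of all 6137 genes were), and none was called. Their median log2 difference for liver was 1.08. Alas1, the first and limiting enzyme outside red cell precursors, read 12782 in liver, 6398 in muscle, 5459 in white adipose, 2616 in pancreas and 2046 in hypothalamus, 1.998-fold higher in liver than in muscle. Alad, the next enzyme, read 3488 in liver, 2278 in hypothalamus and 1997 in white adipose. Urod read 1171 and Cpox 1446 in liver, and the other probe set of Cpox was also highest in liver, at 714, but below noise. Uros was highest in hypothalamus, at 501. Ppox and Fech, the last steps, had their highest values in pancreas (673) and muscle (671), both below noise. Alas2, the enzyme of red cell precursors, was below noise in all 5 tissues. Adult globins were read everywhere: Hba-a1 reached 43774 in pancreas, 23972 in muscle, 21576 in white adipose, 17288 in liver and 6135 in hypothalamus. These are from a probe set of the family design, and the other Hba-a1 probe set read 14.0 to 579, below noise in each tissue. Of 9 red cell markers, 2 to 4 were above noise in each tissue, where 989 to 2576 of all 6137 genes were. The part of blood in the member values was not tested.

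Heme breakdown was read weakly. Hmox1, the inducible heme oxygenase, read 462 in white adipose and 409 in liver, and Hmox2, the constitutive one, 1188 in hypothalamus, 751 in white adipose and 696 in liver. Of these, both Hmox1 values and the hypothalamus value of Hmox2 were above noise. The other probe set of Hmox1 read -34.1 to 28.1 over the 5 tissues, below noise in each. Of 7 iron regulatory and ferritin-handling genes 4 were measured. Aco1, the iron regulatory protein that doubles as an aconitase, read 3864 in white adipose, 3470 in liver, 1067 in muscle, 505 in hypothalamus and -186 in pancreas. Ncoa4, the receptor for breakdown of ferritin, was 1.94-fold higher in white adipose, at 2506, than in liver, at 1289. Ireb2, the other regulatory protein, and Pcbp2, an iron chaperone, were below noise in all 5 tissues. White adipose and liver did not differ in Aco1 beyond the repeat SD, with a ratio of 1.11.

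Of 17 genes of iron sensing and hepcidin control 12 were measured, and 5 were above noise in the tissue where they were highest. Id1, a target of BMP signals, read 1970 in white adipose, but its other probe set stayed under the bound everywhere. Epas1, an oxygen-regulated factor, read 550 in white adipose, but its other probe set read 288 in muscle and 275 in white adipose, both below noise. Furin, a protease that acts on prohepcidin, read 1495 in pancreas, at least 1.40-fold higher than elsewhere. In liver, where Hamp was high, Furin at 714 was above noise and the other 11 were not. Of 14 genes of iron uptake and reduction 5 were measured, and Slc11a2, an importer of ferrous iron, read 416 in hypothalamus, above noise there alone. The 2 genes of iron export, Slc40a1 and Heph, had no probe set under their names and were not analysed here. Of 10 genes of mitochondrial iron 2 were measured, and both were highest in liver: Fdx1, a ferredoxin, at 3454 against 1145 in white adipose, and Hspa9, a chaperone, at 2183 against 1319 in muscle.

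All 8 listed genes of copper handling, the metal Cp carries, were measured. Slc31a1, the copper importer, read 1980 in liver and 394 in white adipose, and was called for liver, at least 1.70-fold higher than elsewhere when the pancreas bound is counted. This call was lost with either higher floor, with spikes and at 8-fold. Its other probe set was also highest in liver, at 1018. Sod1, a copper and zinc superoxide dismutase, read 12479 in liver and 5992 in hypothalamus. Sod3, the secreted form, was highest in white adipose by both probe sets, at 1573 and 2161. Atox1, a copper chaperone, read 3971 in liver and 3361 in white adipose, a ratio of 1.18 that is within the repeat SD. Atp7b, which loads copper onto ceruloplasmin in liver, was below 0 in all 5 tissues.

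**Figure D4:**
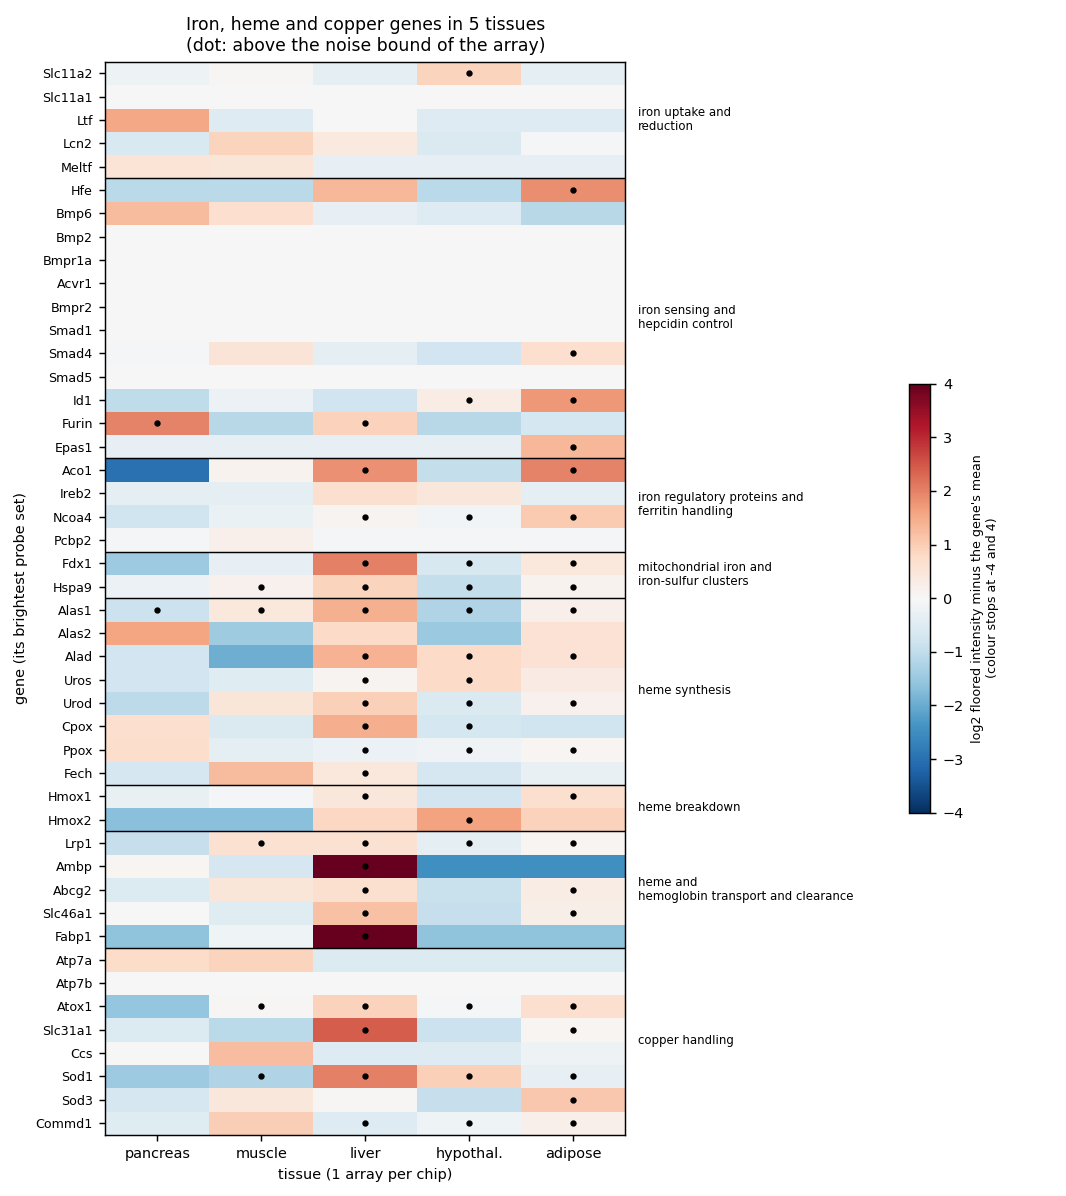
Log2 floored intensity of the 46 measured iron, heme and copper genes minus each gene's mean over the 5 tissues (colour, stopping at -4 and 4), by 1 probe set per gene, with a dot where the value is above the array's noise bound. Ambp, Fabp1 and Slc31a1, the 3 genes called for liver, have the darkest liver cells, and 20 genes have no value above noise where they are highest.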

How the data were processed

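Affymetrix chips A and B of 5 tissues, 1 array each, were used. The deposited intensities are linear whole numbers, some below 0, and their 2% trimmed mean was 500.8 to 501.5 on every array; the software that made them was not given in the sources used here. RNA was extracted with Trizol and labelled from 10 µg, per the labels' protocols. Each array was rescaled to its chip's mean of 2% trimmed means, without the 61 controls, in Python 3.11.15 with pandas 2.3.3, and floored at the median of the array medians. Platform annotation, updated by gene identifier with GRCm38.p6 names, gave 1 symbol to 5541 probe sets of chip A (197 several, 785 none) and 2001 of chip B (27 several, 4506 none), and 5532 and 1993 matched that table. Of several probe sets for a gene, the one whose mean log2 value ranked highest on its chip stood for it. The calling code was run on simulated arrays, multiples of a single profile without noise or values below 0, with some bright probe sets raised 8-fold in liver. This run checks the code only and cannot show how reliable the calls on these noisy arrays are.

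Folds are taken over the largest value or noise bound found elsewhere, with "at least" where a bound sets them. The text names all members, up to 3 genes per list with the largest ratio of highest to next tissue, every gene of the lists of heme synthesis, heme breakdown, iron regulation and iron export, and 3 like profiles per member. Further genes were named after their values were seen: Lrp1, Abcg2, Slc1a2, Cnp, Atox1, Atp7b, Alb, Ahsg, Ttr, Apoa2 and Cyp2e1, beside those marked in the text. No fold has a test, since each tissue has 1 array. Members and lists were chosen with earlier results of these data known. Alternatives were other scalings, floors and thresholds, and leaving out pancreas or muscle; scaling by spikes was added after seeing the data.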

Additional observations from a re-analysis of the deposited data

How the results depend on the processing

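Hamp, Hpx and Cp were called for liver under each scaling and floor, with a 3-fold threshold and without the pancreas or muscle arrays; with an 8-fold threshold 2 were. Of 61 member log2 differences recomputed, 50 did not turn sign and kept their side of 4-fold, with Hp in liver at 0.00 with quantile normalization among them, 5, all of Tfrc in pancreas, fell under it and 6 turned sign. The turned values were Ftl1 in pancreas over the next tissue (-0.76 with 75th percentile scaling, -0.38 with quantile normalization, -2.09 with spikes), Fth1 by M24509 in liver (-0.28 with quantile normalization, -0.37 with spikes) and Hp in liver (-0.11 with spikes). The count for pancreas, 1, was 0 with 75th percentile scaling, quantile normalization, spikes, either other floor or an 8-fold threshold. Pathway genes called for white adipose rose from 0 to 1 (Epas1) at 3-fold. Those for liver, 3, fell to 0 without probe sets of relaxed design, where 10 of the 46 genes were left, and to 2 (Ambp and Fabp1, without Slc31a1) with either other floor, spikes or 8-fold. They rose to 4 at 3-fold (with Fdx1) and without pancreas (with Cpox). All 8 member probe sets are of that design, so this setting gave no member value. No paired analysis was possible because each tissue has 1 array per chip. Leaving out a replicate was not possible for the same reason. Noise limits what can be said of pancreas and muscle, where 8.36% to 16.6% of probe sets were above the bound against 16.4% to 41.1% elsewhere. The cause of the changes was not tested.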
